A study of Homo sapiens with 14 samples.

Results

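The genes of the NCOR and SIN3 corepressor complexes and of their class I histone deacetylases were examined for peaks of the corepressor SKI and of the transcription factor RUNX1 in HL60 cells, an established line of human acute myeloid leukaemia. The 9 genes were NCOR1, TBL1X, TBL1XR1, GPS2 and HDAC3, whose products form the NCOR complex, and SIN3A, SIN3B, HDAC1 and HDAC2, whose products belong to the SIN3 complex. A peak was assigned to a gene when the deposited list named that gene as its next transcript, and 36 of the 88872 peaks in 4 lists met this rule. The lists were SKI in CRISPR/Cas9 control cells (8 of 14019 peaks), SKI in unmodified cells, replicate 1 (20 of 54841) and replicate 2 (6 of 14431), and RUNX1 in unmodified cells (2 of 5581). The unmodified cells carry no edit (genotype WT), the control cells are labelled CTR-1 with no target named, and all were grown in RPMI with serum and no named treatment. Antibodies against SKI and RUNX1 were used on formaldehyde-crosslinked, sonicated chromatin. The remaining 10 of 14 samples, cells with SKI deleted and IgG among them, were not analysed here, and the SKI peaks were therefore not checked against cells that lack SKI. The labels do not say whether the control cells are 1 clone or whether the replicates are separate cultures, and they give no library depth. The control-cell and RUNX1 groups are single samples, and no value of theirs has a replicate check. Positions are on hg19 as deposited.

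SKI does not bind DNA by itself and acts at genes through partners such as SMAD proteins, to which it brings corepressor complexes. In the NCOR complex, NCOR1 is the scaffold, HDAC3 is the deacetylase that removes acetyl groups from histones, TBL1X and its close relative TBL1XR1 are WD40-repeat subunits, and GPS2 is a small subunit. SIN3A and SIN3B are related scaffolds that carry HDAC1 and HDAC2, which also work in other corepressor complexes. RUNX1 binds DNA directly and is needed for the formation of blood cells.

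Of these genes, 4 are shown by the sequence before a RefSeq start (250 bases, build GRCh38.p14), since they differ in what was found at them: SKI with RUNX1 at TBL1X, SKI alone at the starts of TBL1XR1 and HDAC1, and SKI in part of the lists at SIN3B. Capitals mark TGTGGT, the core of the RUNX recognition sequence, on either strand.
TBL1X (chrX:9463045-9463294, plus strand): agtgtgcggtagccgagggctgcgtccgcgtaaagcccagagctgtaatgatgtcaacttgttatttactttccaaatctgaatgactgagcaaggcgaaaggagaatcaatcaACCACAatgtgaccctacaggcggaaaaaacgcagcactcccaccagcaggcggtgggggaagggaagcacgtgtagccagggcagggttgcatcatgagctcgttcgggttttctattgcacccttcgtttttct
TBL1XR1 (chr3:177197483-177197732, minus strand): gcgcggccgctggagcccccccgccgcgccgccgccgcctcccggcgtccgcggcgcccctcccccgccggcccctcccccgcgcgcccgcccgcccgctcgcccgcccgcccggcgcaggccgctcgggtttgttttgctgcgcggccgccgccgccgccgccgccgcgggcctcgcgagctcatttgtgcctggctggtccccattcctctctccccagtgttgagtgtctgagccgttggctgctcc
HDAC1 (chr1:32291833-32292082, plus strand): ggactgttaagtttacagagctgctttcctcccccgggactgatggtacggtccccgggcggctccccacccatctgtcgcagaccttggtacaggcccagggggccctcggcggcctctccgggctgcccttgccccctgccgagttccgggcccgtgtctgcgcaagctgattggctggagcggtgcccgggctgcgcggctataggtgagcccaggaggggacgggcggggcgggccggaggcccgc
SIN3B (chr19:16863024-16863273, plus strand): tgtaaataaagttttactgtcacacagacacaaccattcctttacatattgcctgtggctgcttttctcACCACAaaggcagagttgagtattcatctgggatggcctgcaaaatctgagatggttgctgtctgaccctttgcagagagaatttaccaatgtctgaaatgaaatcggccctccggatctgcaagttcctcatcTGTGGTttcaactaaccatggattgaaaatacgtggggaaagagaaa
All 9 genes matched the RefSeq table, with 13 starts. TGTGGT was searched on both strands in the 250 bases before a start. It occurred before 3 of the 13 starts and before 11.0% of all 35116 starts in the table. The 3 were at TBL1X, SIN3B and NCOR1, and those of SIN3B and NCOR1 lie 33876 and 20895 bp inside their gene spans. The 250 bases before this NCOR1 start were 23.6% G or C, the lowest of the 13 starts, whose median was 66.4%. Whether these bases act as a promoter was not tested. The word CAGAC, known as the SMAD box, occurred before 5 of the 13 starts (TBL1XR1, GPS2, SIN3B, HDAC1 and HDAC2) and before 38.0% of all starts. Of the 3 genes with TGTGGT, a RUNX1 peak was listed at TBL1X. The word there lay 136 to 131 bases before the start. The RefSeq starts are on another build than the peaks and were not converted, so the positions of words and peaks cannot be set beside each other base by base. A match of letters is a description and not a binding site.

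The genes differed in how far SKI peaks recurred. All 9 had a SKI peak in unmodified cells, replicate 1, while 5 had one in control cells and 4 in unmodified cells, replicate 2. Peaks of the authors' TSS class, for which the file headers give a window of 1250 bp, were found at the same numbers of genes. The long list of replicate 1 named 98% of all 13808 protein-coding genes that any list names, and the other lists named 44.4% (control cells) and 45.9% (replicate 2). For TSS-class peaks these percentages were 33.1% in control cells, 80.1% in replicate 1 and 35.8% in replicate 2. A gene that was next to no peak is missing from that total. Over the 20052 protein-coding symbols of RefSeq, 29.7%, 65.1% and 30.8% had a SKI peak in control cells, replicate 1 and replicate 2, and 53.9% had a TSS-class peak in replicate 1. The 9 of 9 in replicate 1 thus stand beside a background that is itself high. The median number of peaks over the 4 lists was 3 for the 9 genes and 3 for all protein-coding genes named.

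Joined where they overlapped by 1 bp or more, the SKI peaks assigned to the 9 genes formed 20 sites, of which 5 held such a peak of every SKI list. These were the start regions of TBL1X, TBL1XR1, SIN3A and HDAC1 and a site upstream of TBL1XR1. With each list shortened to the 5581 peaks with the top −log10 p, 3 shared sites were left, and those at HDAC1 and upstream of TBL1XR1 were no longer shared. A further site, at SIN3B, was found in control cells and replicate 1, and at the other 14 the peaks assigned to these genes were of replicate 1 alone. The HDAC2 site among these also held peaks of the other SKI lists that were assigned to an antisense transcript. With peaks of any next transcript counted, an alternative chosen after seeing the data, 6 of the 20 sites were shared. On that basis 16.3% of all 55146 SKI sites were shared, and 70.2% were found in replicate 1 alone. The 4 genes with a shared site compare with 32.4% of protein-coding genes with any listed peak and 21.8% of RefSeq symbols. TBL1XR1 had more than 1 shared site, as did 7.4% of the genes named. Of the 5 shared sites, 4 (80%, 95% Wilson interval 37.6 to 96.4) lay within 1000 bp of a TSS by the median deposited distance of their peaks, against 45.5% of all 8980 shared SKI sites. The interval covers counting error only, and 5 sites give it a wide range. All 8980 sites were joined from peaks of any next transcript, and on that basis the share at these genes was 83.3%.

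**Figure D1:**
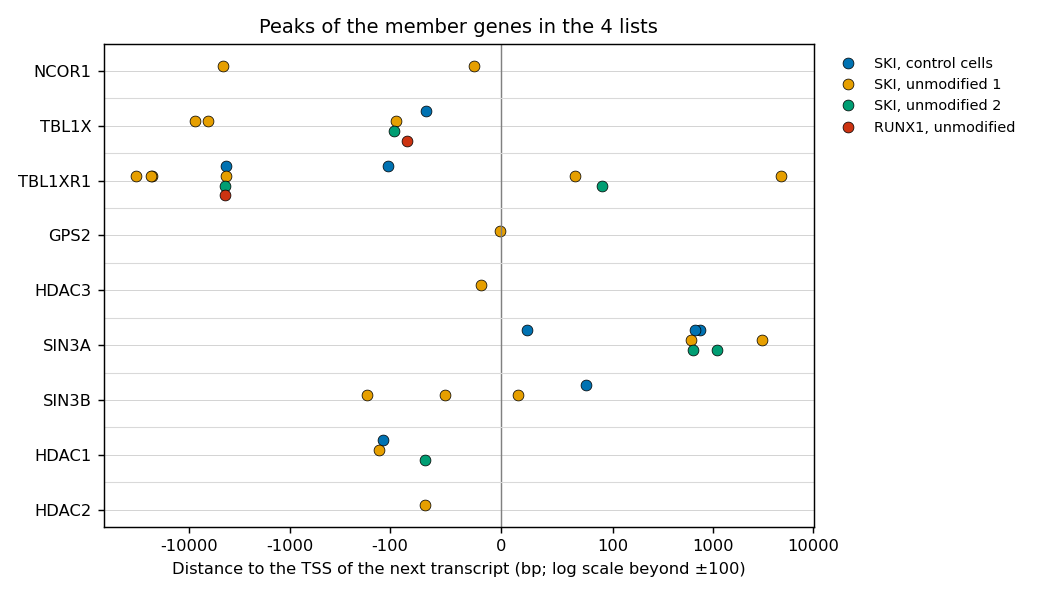
Signed distance of each of the 36 peaks to the TSS of its next transcript (horizontal axis, bp, log scale beyond 100 bp on either side; negative is upstream), by gene from top to bottom, with one colour per list. Peaks of all 4 lists gather close to the start of TBL1X and at the site upstream of TBL1XR1, while NCOR1, GPS2, HDAC3 and HDAC2 have points of replicate 1 alone.

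RUNX1 peaks were listed at the 2 TBL1 family genes and at none of the other 7. Over all protein-coding genes named, 17.1% had a RUNX1 peak, and over RefSeq symbols 11.3% did. Both RUNX1 peaks lay in sites shared by the 3 SKI lists, so that 2 of the 5 shared sites (40%, 95% Wilson interval 11.8 to 76.9) carried RUNX1, against 33.5% of all shared SKI sites. With peaks of any next transcript counted, as for all SKI sites, the share at these genes was 33.3%. A shared SKI site with RUNX1 was found at 10.5% of the genes named. By peaks, 2 of 8 in control cells, 2 of 20 in replicate 1 and 2 of 6 in replicate 2 overlapped RUNX1, where the whole lists had 27.8%, 9.21% and 23.9%. In the reverse direction both RUNX1 peaks overlapped SKI peaks of all 3 lists, as 70.7% (control cells), 92.9% (replicate 1) and 60.4% (replicate 2) of all RUNX1 peaks did. These counts are close to the background at this number of peaks.

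At TBL1X the 2 proteins were found at the start of the gene. The RUNX1 peak (chrX:9430930-9431482) had a fold enrichment of 47.4 from 58 tags, with rank 521 of 5581, and lay 85 bp upstream of the TSS. The SKI peaks had fold enrichments of 28.7 in control cells, 186 in replicate 1 and 45.5 in replicate 2, from 73, 989 and 144 tags. The fold enrichment is the authors' value of a peak over its background and is used for ranks within a list only. In replicate 1 the SKI peak ranked 10 of 54841, the highest rank of any of the 36 peaks. It ranked 1447 of 14019 in control cells and 325 of 14431 in replicate 2.

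The summits of SKI and RUNX1 at TBL1X almost coincided, with SKI summits 15 bp (control cells), -1 bp (replicate 1) and 9 bp (replicate 2) from the RUNX1 summit along the chromosome. The peaks of control cells and replicate 2 had nearly the span of the RUNX1 peak (546 and 591 bp, against 553 bp), while that of replicate 1 covered 3298 bp. Peaks on X had a higher median fold enrichment than their whole list, at 20.2 against 11.6 in control cells, 24.7 against 18.8 in replicate 1, 18.9 against 10.35 in replicate 2 and 31.75 against 18.3 for RUNX1. The part of this in the ranks of TBL1X was not tested. Among X peaks alone, TBL1X ranked 58 of 230 in control cells, 1 of 1354 in replicate 1, 16 of 192 in replicate 2 and 23 of 103 for RUNX1. Replicate 1 also listed intergenic peaks 6560 and 8784 bp upstream, with fold enrichments of 61.2 and 23.4 and no RUNX1 peak.

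TBL1XR1 had the most peaks of the 9 genes, with 11 over the 4 lists, more than 92.7% of the protein-coding genes named. Its 2 shared sites differed in RUNX1. The site upstream (chr3:176919018-176920051, at TSS distances of -4352 to -4421 bp) held the RUNX1 peak, with a fold enrichment of 23.8 from 43 tags and rank 1909 of 5581. SKI fold enrichments there were 13.1 in control cells, 67.9 in replicate 1 and 8 in replicate 2, from 37, 279 and 46 tags. The SKI summits lay -33, -30 and 23 bp from the RUNX1 summit in the same order.

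The site at the start of TBL1XR1 (chr3:176912948-176917169) had no overlapping RUNX1 peak, the nearest being the one upstream, 2261 bp away. SKI fold enrichments there were 69.9 in control cells, 95.6 in replicate 1 and 39.8 in replicate 2, from 404, 2814 and 524 tags. It was the stronger of the 2 sites in every SKI list. By percentile of fold enrichment within the list, the upstream site with RUNX1 stood at 57.3, 92.8 and 31.9 in control cells, replicate 1 and replicate 2, and the start without RUNX1 stood at 98.6, 97.5 and 96.8. The 2814 tags in replicate 1 ranked 10 of 54841, and the 524 tags in replicate 2 ranked 43 of 14431. The first RefSeq start of TBL1XR1 in the sequences above lies 4318 bp inside the gene span of GRCh38, so the annotated gene extends well upstream of it. The site with RUNX1 lay at nearly that distance, -4352 to -4421 bp from its TSS in hg19. Whether this site is at the outer end of the annotated gene was not tested, since the builds were not converted. Replicate 1 listed 4 more peaks, 1 in an intron at 4804 bp from a TSS and 3 intergenic ones 23830 to 33980 bp upstream, with fold enrichments of 9.17 to 14.4, all below the median of the list.

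**Figure D2:**
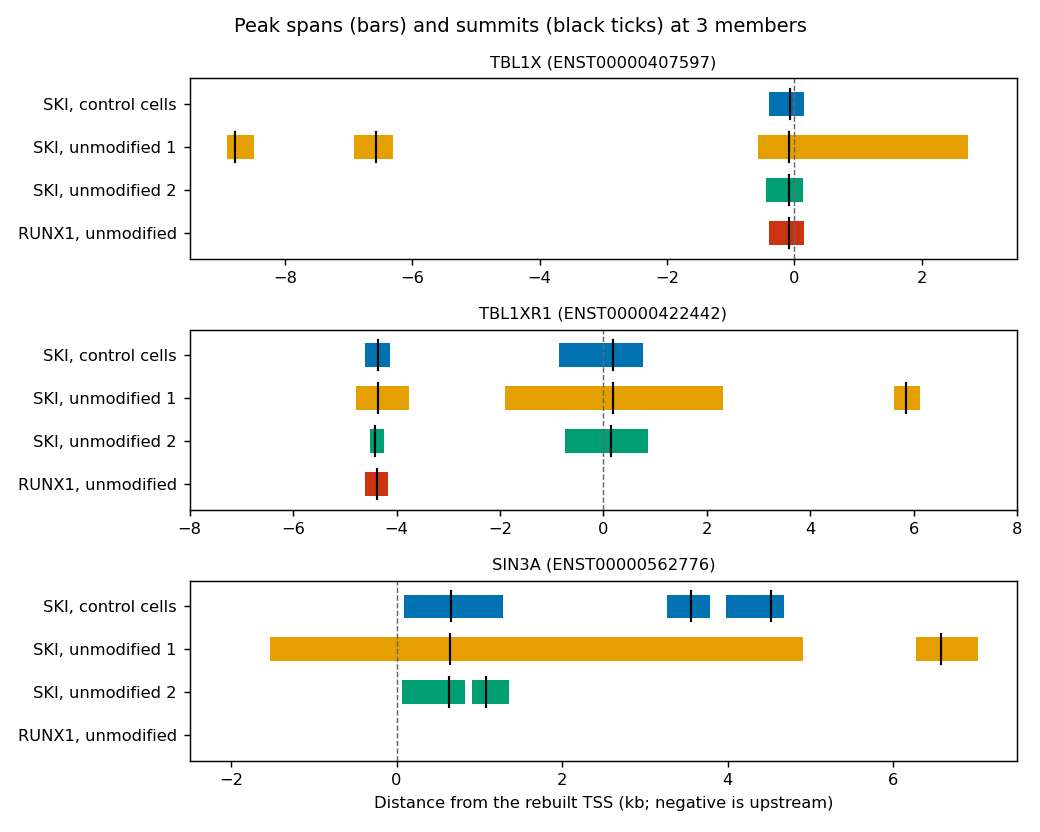
Spans (bars) and summits (black ticks) of the peaks at TBL1X, TBL1XR1 and SIN3A, by distance from a TSS rebuilt from the deposited distances (horizontal axis, kb; negative is upstream; dashed line at the TSS), one row per list. RUNX1 and SKI summits stand together at the TBL1X start and at the site upstream of TBL1XR1, and SIN3A has no RUNX1 peak. The 3 peaks of replicate 1 that lie farther upstream of TBL1XR1 are outside the drawn range.

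The other NCOR complex genes had SKI peaks in replicate 1 alone, and no RUNX1 peak. At NCOR1 a peak 25 bp upstream of a TSS (chr17:16118511-16119324) had a fold enrichment of 40.7 from 144 tags, at the 81.3 percentile of the list. A weaker intronic one (chr17:16102348-16102740) had 14.3 from 38 tags, 4616 bp upstream of a second transcript whose start lies 20915 bp from the first. The RefSeq start of NCOR1 that holds TGTGGT lies 20895 bp inside its gene span. A separate peak of replicate 1, assigned to the neighbour PIGL, lay 587 bp from the stronger one with a fold enrichment of 60.6. HDAC3 had a peak (chr5:141015631-141018045) 18 bp upstream of its TSS, with a fold enrichment of 14.2 from 328 tags. It was wide, at 2415 bp, but weak by fold, at the 34.5 percentile, and stood at the 84.2 percentile by tags. GPS2 had a peak (chr17:7218282-7219074) 1 bp upstream of its TSS, with a fold enrichment of 17.4 from 112 tags, at the 45.6 percentile. The nearest RUNX1 peaks were 203820 bp from the NCOR1 start site, 29786 bp from that of HDAC3 and 412958 bp from that of GPS2.

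SIN3A had the widest SKI site of the 9 genes. In replicate 1 a peak of 6437 bp (chr15:75742453-75748889), wider than 99.98% of the list, had a fold enrichment of 97.4 from 1456 tags and ranked 1259 of 54841. Inside it, control cells listed 3 peaks with fold enrichments of 15.1, 7.15 and 5.23, from 99, 42 and 36 tags. Replicate 2 listed 2 peaks there, with fold enrichments of 38.6 and 10.7 from 124 and 41 tags. The strongest peak of each list lay at nearly the same point, 655, 604 and 633 bp downstream of the same TSS in control cells, replicate 1 and replicate 2. Its percentile of fold enrichment was 65.4, 97.7 and 96.6 in that order, and ranks from lists of unequal length cannot show whether binding changed between samples. The nearest RUNX1 peak was 99699 bp away. Replicate 1 also listed a peak in an exon (chr15:75740343-75741085), with a fold enrichment of 32.9 from 121 tags.

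SIN3B, the related scaffold, had peaks in control cells and replicate 1 and none in replicate 2. Control cells had a peak of fold enrichment 21.5 from 79 tags (chr19:16973698-16974285, the 81.4 percentile). Replicate 1 had one of 15.1 from 85 tags at the same place (37.9 percentile). The starts of the next transcripts named for this site and for the first site of the gene lay 33630 bp apart, and the RefSeq start whose sequence is printed lies 33876 bp inside the gene span. Replicate 1 also listed a peak at the first start (chr19:16939709-16940385), with a fold enrichment of 6.07 from 43 tags, and one at a start farther downstream (chr19:16987455-16988128) with 8.87 from 44 tags. Both were among the weakest of the list, at the 2.63 and 12.2 percentiles. The nearest RUNX1 peaks were 456512 to 470325 bp from these sites.

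The deacetylase genes HDAC1 and HDAC2 had SKI peaks at their starts, and that of HDAC1 in replicate 2 was among the weakest of its list. HDAC1 had a shared site (chr1:32756685-32758619), with fold enrichments of 11.1 in control cells, 21.0 in replicate 1 and 5.69 in replicate 2. The deposited TSS distances were -117, -128 and -69 bp in the same order, the last to another transcript. The summits lay at 32757576, 32758279 and 32757744, so the similar distances do not mean that the summits coincided. For the transcript of the first 2 distances, the peaks gave start positions of 32757693 and 32758407. The tags were 97, 503 and 74. The percentiles were 46.1, 55.9 and 10.0, so HDAC1 was the weakest of the 4 shared start sites by fold in all 3 lists. By tags it stood higher, at the 73.9, 92.0 and 68.4 percentiles. HDAC2 had a peak of replicate 1 (chr6:114291058-114293295), with a fold enrichment of 34.7 from 514 tags at the 76.4 percentile.

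At the same place as the HDAC2 peak, control cells had a peak of fold enrichment 11.7 from 67 tags and replicate 2 one of 17.6 from 133 tags. These were assigned to the antisense transcript RP3-399L15.3 and not to HDAC2. HDAC2 is therefore counted without a shared site under the rule used here. With peaks of any next transcript counted, the genes with a shared site numbered 5. Reads at such a start cannot be assigned to one of the 2 genes. No RUNX1 peak lay near HDAC1 (56019 bp) or HDAC2 (1683411 bp).

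**Figure D3:**
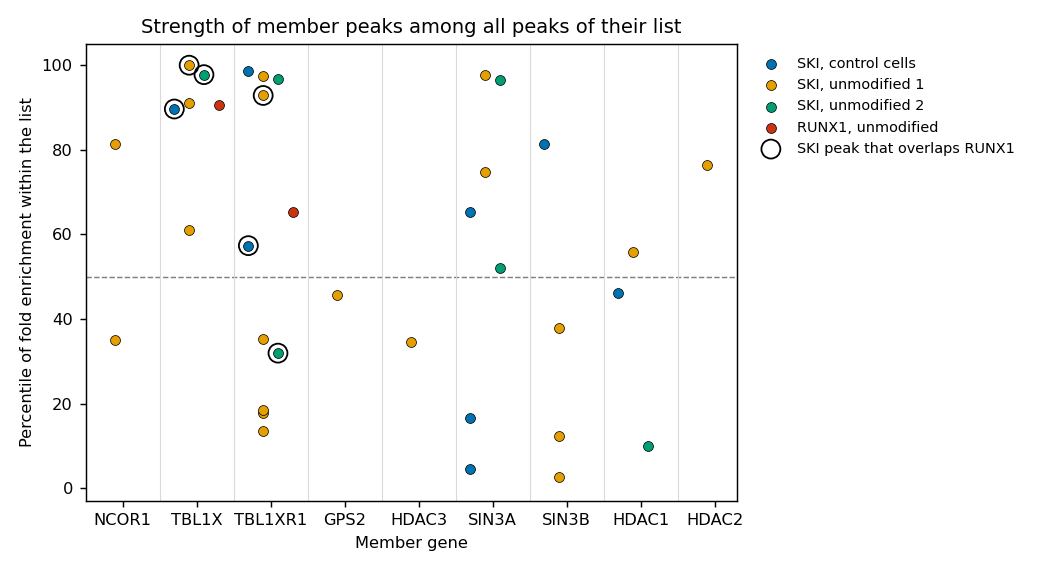
Percentile of fold enrichment of each peak of the 9 genes within its own list (vertical axis; dashed line at 50), by gene and with one colour per list; rings mark SKI peaks that overlap a RUNX1 peak. The start peaks of TBL1X and TBL1XR1 and the strongest SIN3A peak of each unmodified replicate stand near the top, while HDAC1, HDAC3, GPS2 and most SIN3B peaks lie near or below the middle.

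Over all their peaks, the 9 genes had median percentiles of fold enrichment of 61.4 in control cells, 50.7 in replicate 1, 74.3 in replicate 2 and 78.0 for RUNX1, where 50 is the middle of a list. The RUNX1 median rests on 2 peaks and was 56.5 when they were ranked by −log10 p and 39.7 when ranked by tags. The range within each SKI list was wide, from 4.56 to 98.6, from 2.63 to 99.98 and from 10.0 to 97.8. In the authors' position classes, 7 of 8, 11 of 20 and 5 of 6 SKI peaks were of the TSS class. The whole lists, which include peaks next to noncoding transcripts, had 48%, 35.2% and 52.4%. Of the peaks at all protein-coding genes named, 5593 of 9624, 15315 of 34436 and 6297 of 10182 were of this class. In control cells, 3 of the 7 lay in the shared SIN3A site. For the 9 genes, the peaks outside the TSS class in control cells and replicate 2 were those of the site upstream of TBL1XR1. Sites with RUNX1 were 1 of the 4 shared sites within 1000 bp of a TSS and the 1 shared site farther away by the deposited distances, against 17.7% and 46.6% of all shared SKI sites of these classes.

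A SKI site shared by the 3 lists was found at 4 of the 9 genes, against 8 of 24 other genes of the complexes and the deacetylase family. RUNX1 peaks were listed at 2 of the 9 and 5 of the 24, and they lay in 2 of the 5 and 4 of the 18 shared sites. The class II deacetylase genes HDAC4, HDAC5, HDAC7, HDAC9 and HDAC10 had 5, 5, 3, 1 and 1 shared sites. Of the SIN3 complex genes, FAM60A, SAP30 and ING1 had 1 each. SAP18, SAP130, SUDS3, BRMS1, BRMS1L, RBBP4 and RBBP7 had peaks in replicate 1 alone, and HDAC11, SAP30L and ARID4A had none.

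By the rule of the smallest worst rank, the first of these sites was at HDAC5 (chr17:42187480-42189046), with SKI fold enrichments of 29.4 in control cells, 87.9 in replicate 1 and 20.4 in replicate 2 and no RUNX1 peak at this site. Another shared HDAC5 site (chr17:42199959-42201787), with values of 35.7, 60.0 and 9.56, held a RUNX1 peak of fold enrichment 14.7 at a TSS distance of -14 bp. At HDAC4 an intronic site (chr2:240188813-240189776) reached 15.2, 68.3 and 14.1 for SKI in the same order and 65.9 for RUNX1, above the values of both RUNX1 peaks at the TBL1 genes. The HDAC9 site (chr7:18217538-18218565; 11.6, 101 and 11.9) carried RUNX1 and lay a median of 26677 bp from a TSS. The HDAC7 site (chr12:48206286-48208361; 36.7, 43.4 and 11.6) carried none and lay 89 bp from a TSS, so the 2 sites differed in position as well. At FAM60A (chr12:31476440-31479626) the values were 6.72, 40.9 and 19.5, and at SAP30 (chr4:174291662-174293653) they were 10.4, 32.9 and 6.55. The rule compares ranks over lists of unequal length. With each rank taken as a share of its list, the worst was 0.717 at ING1, whose site carried RUNX1, and 0.866 at FAM60A, so that ING1 would stand in place of FAM60A.

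**Figure D4:**
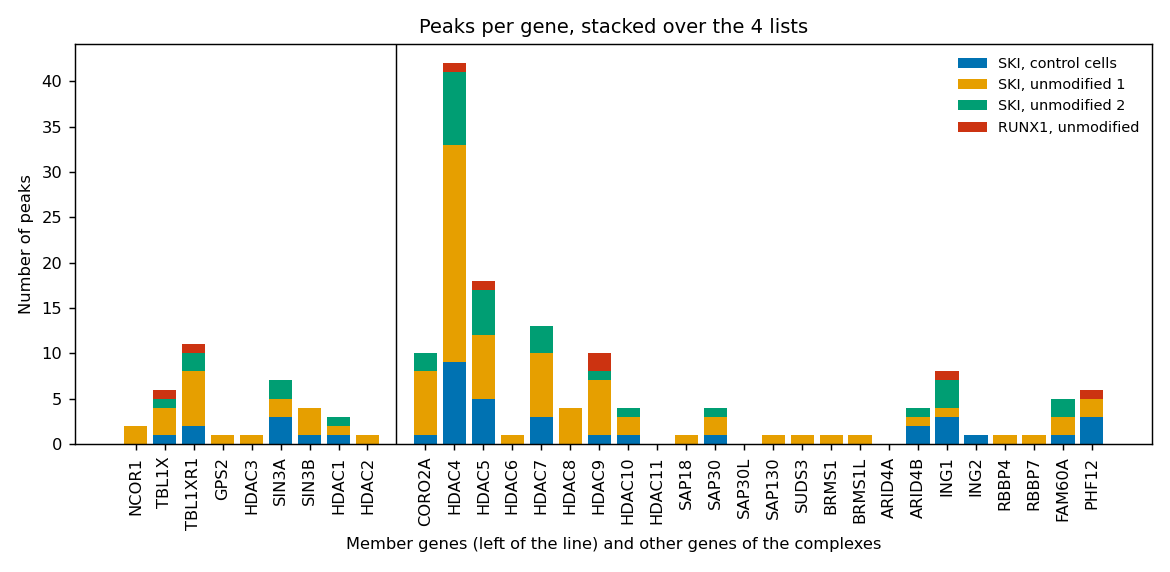
Number of peaks per gene (vertical axis), stacked over the 4 lists, for the 9 genes left of the line and 24 other genes of the complexes and the deacetylase family right of it. HDAC4 has 42 peaks, HDAC5 has 18 and HDAC7 has 13, above the 11 of TBL1XR1, which has the most of the 9.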

How the data were processed

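The data were the peak lists of 4 ChIP-seq samples, grouped by their titles. The submitters' processing notes name bcl2fastq, Bowtie2, MACS 1.4 and deepTools and the builds hg19 and GRCh37, without the role of each. Control libraries and depth are not stated in these sources. Per the labels' protocols, chromatin was crosslinked with formaldehyde and sonicated. Per the file headers, each deposited peak carries a −log10 p-value, a fold enrichment (ratio) over background and a count of tags; peaks were listed per sample. The lowest −log10 p-value was 5.001 to 5.006 in the 4 lists, and the top value 310 was shared by 82 to 4622 peaks of a list. Ranks were taken by fold enrichment. The FDR column was not used.

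Peaks were assigned by the next transcript. Sites were made by joining SKI peaks with an overlap of 1 bp or more. A site counted as a promoter site when the median of its deposited TSS distances was within 1000 bp, used in place of a distance from the site's centre, since the deposited distances lie closer to summits. Ranks and percentiles were taken within each list. As each condition has 1 list, or 2 for SKI in unmodified cells, and the genes are a chosen list, no test was run, and shares of all peaks, sites and genes stand beside the counts. Shares carry Wilson intervals. A RefSeq symbol was found for 96.5% of the 13808 protein-coding genes with a listed peak. TSS positions in the plot of spans were rebuilt from summits, since these fitted the deposited distances with a median deviation of 11.5 bp, against 42.5 bp for centres. HDAC1 was not drawn there, since its peaks gave positions from 32757693 to 32758407 for 1 transcript. Every gene was named, with its shared sites, its RUNX1 peaks and its strongest peaks, and of 24 other genes the 6 with the smallest worst rank of a shared site. A further gene of the planned list is not reported here. The genes and lists were chosen with earlier results of these data known. Joining and overlap were tested on simulated data. Alternatives were a stricter threshold, lists held to 1 length, the omission of each SKI list, other overlaps, distances, ranks and comparison peaks. The software was matplotlib 3.10.9, scipy 1.17.1, pandas 2.3.3 and numpy 2.4.6 under Python 3.11.15.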

Additional observations from a re-analysis of the deposited data

How the results depend on the processing

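Of 63 alternative values under 16 settings, 2 of them added after seeing the data (peaks of any next transcript, and ranks among peaks of the same chromosome), 56 stayed within 1.5 times the count, within the interval of the share, or within the SD of 11.8 of the median percentile over the SKI lists. With 5 shared sites these bounds are wide, so the number that stayed within them says little about how stable the results are. With each list shortened to the 5581 peaks with the top −log10 p, which leaves fewer peaks, the shared sites numbered 3 (TBL1X, TBL1XR1 and SIN3A), all within 1000 bp of a TSS (100%). The median percentiles were then 54.1 in control cells, 79.4 in replicate 1 and 91.8 in replicate 2, from 5, 3 and 3 peaks of these genes. With 5000 bp as the promoter distance the promoter share was also 100%. For the 2 RUNX1 peaks the median percentile was 56.5 by −log10 p and 39.7 by tags, against 78.0 by fold enrichment; the cause was not tested. Leaving out 1 SKI list gave 5 to 6 shared sites at 4 to 5 genes, with RUNX1 at 33.3% to 40% and promoters at 80% to 83.3%; the added site, without replicate 2, was that of SIN3B. Libraries of unknown depth, 5 shared sites and 2 RUNX1 peaks limit every share given. No paired analysis was possible because no test was run and no pair of groups has more than 1 replicate number in common.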
